A study of Mus musculus with 4 samples.

Results

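The genes described here encode the complement, coagulation and acute phase proteins. Their 47 symbols were listed by name, not by measured values, and were looked up as gene names in the 4 array files. All 47 had probes on the array, 76 probes with 1 spot each. A probe well above background was found on at least 1 array for 40 of the 47 genes, and on all 4 arrays for 29. Over the whole series 24638 genes had such a probe. The remaining 7, namely C8b, C9, F7, F12, Orm2, Saa2 and Apcs, were not well above background on any array.

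Kidney RNA of ICR mice, an outbred strain, was hybridised to single-colour expression arrays. Saline (the control) or vancomycin was injected at zeitgeber time 2 (ZT2) or 14 (ZT14), where zeitgeber time is the time since lights on, in hours. This gave 4 groups, and in every group the kidney was taken 1 day after injection. Vancomycin is a glycopeptide antibiotic that can injure the kidney at high exposure. Each group had 1 array, so a difference at a single injection time has no test; the labels do not give the dose, the sex and age of the mice, or how many mice made up a sample.

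Complement is a cascade of plasma proteases and their substrates that marks targets for uptake or lysis: mannose-binding lectins and their proteases start it, C4 and C3 are cleaved in its centre, and terminal components form a pore. Coagulation is a second protease cascade, started by tissue factor, that ends in the cleavage of fibrinogen to fibrin and its cross-linking, and is limited by thrombomodulin, protein C and the plasmin system. Acute phase proteins are plasma proteins whose synthesis, mostly in the liver, changes with inflammation; interleukin-6 acting through STAT3, and C/EBP factors, are known to drive many of their genes. The kidney makes some of these proteins itself, among them C3, factor B, urokinase and tissue factor.

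The fibrinogen chains form 1 gene cluster on chromosome 3, and their promoters are shown because the alpha and gamma chain transcripts had lower values at ZT14 in both treatments, as given further on. The promoter of C3 is shown beside them. Each run is the 250 bases before the gene start in RefSeq (GRCm38.p6), 5′ to 3′ on the gene's strand. Capitals mark matches, on either strand, to a C/EBP motif (TTGCNNAA), a STAT motif (TTCNNNGAA) or a half-site of HNF1 (GTTAAT).
Fga promoter, chr3:83025903-83026152, plus strand: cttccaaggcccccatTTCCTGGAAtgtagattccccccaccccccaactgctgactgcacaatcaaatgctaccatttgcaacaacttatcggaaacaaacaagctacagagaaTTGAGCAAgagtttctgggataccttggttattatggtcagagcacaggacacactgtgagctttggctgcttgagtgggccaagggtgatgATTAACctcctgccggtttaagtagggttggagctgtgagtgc
Fgb promoter, chr3:83049864-83050113, minus strand: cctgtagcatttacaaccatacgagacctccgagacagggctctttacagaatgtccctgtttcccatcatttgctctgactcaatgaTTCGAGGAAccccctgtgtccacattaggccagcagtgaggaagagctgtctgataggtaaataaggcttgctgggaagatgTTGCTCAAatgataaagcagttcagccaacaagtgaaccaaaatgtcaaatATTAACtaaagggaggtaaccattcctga
Fgg promoter, chr3:83007474-83007723, plus strand: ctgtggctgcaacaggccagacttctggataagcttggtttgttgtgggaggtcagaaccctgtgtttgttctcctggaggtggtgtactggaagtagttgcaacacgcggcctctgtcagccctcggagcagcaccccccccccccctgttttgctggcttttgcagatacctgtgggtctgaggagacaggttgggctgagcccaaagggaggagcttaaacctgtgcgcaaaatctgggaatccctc
C3 promoter, chr17:57228137-57228386, minus strand: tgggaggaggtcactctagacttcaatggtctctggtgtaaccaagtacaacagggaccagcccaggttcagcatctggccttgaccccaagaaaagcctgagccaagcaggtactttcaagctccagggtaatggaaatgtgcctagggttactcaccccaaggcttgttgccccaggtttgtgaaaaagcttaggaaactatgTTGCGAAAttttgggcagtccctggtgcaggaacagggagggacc

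Fga and Fgb each held a match to all 3 motifs, at -135, -234 and -43 from the start for Fga and at -80, -162 and -29 for Fgb (C/EBP, STAT and HNF1, first base of the match). Fgg held none of the 3 in this window. C3 held a C/EBP match at -45. Of the 47 genes, 33 had a promoter in the RefSeq table, with 35 entries among 32851. The C/EBP motif was found in 10 of the 35 entries (28.6%) and in 9.56% of all promoters, in the genes C3, C9, Cp, Fga, Fgb, Hpx, Orm2, Saa1, Saa2 and Saa3. The STAT motif was found in 6 (17.1%, against 7.02% of all promoters) and the HNF1 motif in 8 (22.9%, against 6.43%). A D-box (TTATGNAA), a motif of clock output factors that can overlap the C/EBP motif, was in 2 (5.71%, against 3.07%), both of them overlapping a C/EBP match in C9 and Saa3. An E-box (CACGTG), the motif of CLOCK and BMAL1, was in 0 of the 35 and in 6.02% of all promoters. These are matches of letters and not binding sites.

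A probe of C4b is shown because the vancomycin difference of C4b had opposite signs at the 2 injection times and because the near-identical copy C4a could share its signal; its position is in mm9, the build of the array files, on the minus strand.
C4b probe, chr17:34866361-34866420: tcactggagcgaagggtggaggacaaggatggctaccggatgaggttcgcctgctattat

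Between 60.59% and 64.75% of the 59305 spots of an array were well above background, and 0 were saturated. Values below are the scaled signal, which is the processed signal as a percent of the 75th percentile of its array, and are given in the order saline ZT2, vancomycin ZT2, saline ZT14, vancomycin ZT14. A difference is on the log2 scale, vancomycin minus saline, and a gene is represented by its brightest probe. The 2 ZT2 arrays were on 1 slide and the 2 ZT14 arrays on another, so injection time and slide cannot be told apart. The scanner software's own error model gave a median technical error of 0.20 for a difference of a member (range 0.20 to 0.35), which holds no spread between animals. As a check of the tissue, 7 of 7 proximal tubule markers and 5 of 5 thick ascending limb markers were well above background on every array.

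With vancomycin, more of the members were lower than higher at both injection times, by small amounts. At ZT2, 33 members were well above background on both arrays, and 21 of them were below 0 (49.3% of all genes measured there were). Their median difference was -0.14, against 0.00 for all genes. At ZT14, 30 were measured, 22 were below 0 (47.7% of all genes), and the median was -0.30 against 0.02. By size, 4 members were lower by 2-fold or more at ZT2 (C4b, Cfi, F13a1 and Hp, where 3.10% of all genes were) and 1, Mbl1, was higher (1.40% of all genes). At ZT14, Hp was the 1 member lower by 2-fold or more (2.34% of all genes) and C4b the 1 member higher (1.21%). Past 2 technical errors, 11 members were lower and 5 higher at ZT2 (11.5% and 9.35% of all genes measured there), and 11 lower and 2 higher at ZT14 (9.49% and 8.02%). In bulk tissue, fewer cells of a type and less RNA per cell cannot be told apart.

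Of the 29 members measured on all 4 arrays, 15 were lower with vancomycin at both times (27.3% of all genes were), 3 were higher at both (29.9%) and 11 differed in sign (42.8%). When treatment and injection time were fitted together, an adjusted p of 0.05 was passed by 0 of 24638 genes (limma, Benjamini-Hochberg, smallest adjusted p = 0.52). At an unadjusted p of 0.05, 7 of the 29 members were lower (3.77% of all genes measured on all 4 arrays) and 0 higher (2.56%). Over all 40 members these were 9 lower (5.35% of all genes) and 0 higher (3.21%). These p-values set the size of the fitted difference against a spread that is not one between animals. That spread joins the mismatch of the ZT2 and ZT14 differences (1 residual degree of freedom) with a prior taken from all genes. The prior had 1.86 degrees of freedom and an SD of 0.168 (log2). Without the injection time term, 1 of the 9 members, Ttr, stayed below an unadjusted p of 0.05.

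**Figure D1:**
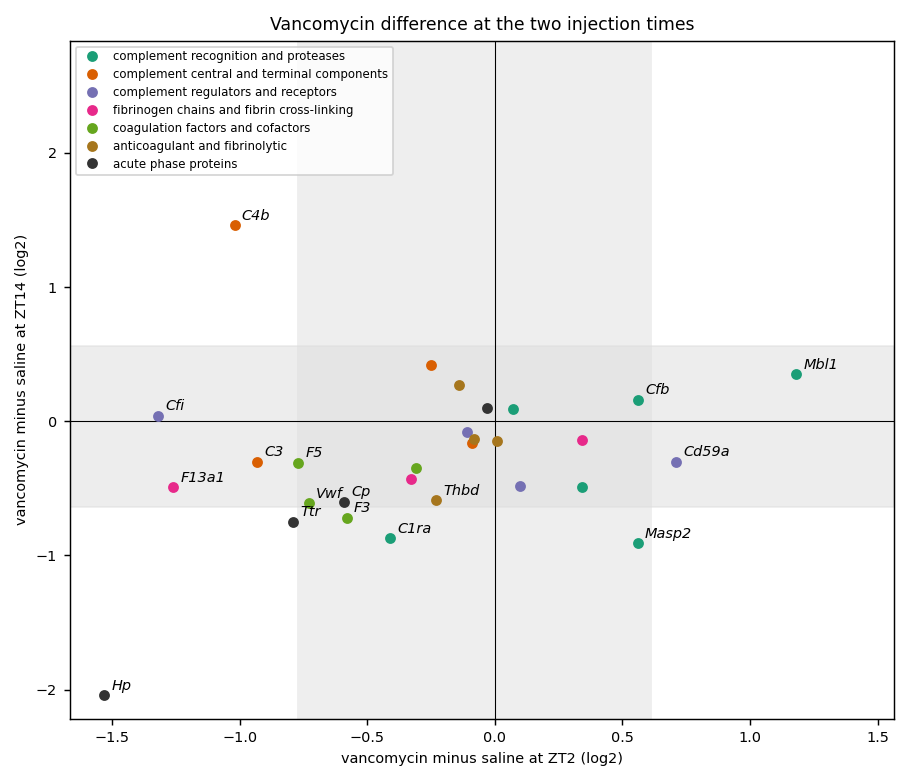
Vancomycin minus saline at ZT2 (horizontal axis, log2) against the same at ZT14 (vertical axis, log2) for the 29 members measured on all 4 arrays, 1 point per gene, coloured by role. Grey bands hold the 5th to 95th percentiles of all genes (-0.77 to 0.61 at ZT2, -0.64 to 0.56 at ZT14); Hp lies at the lower left, and C4b at the upper left.

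Among the acute phase proteins, haptoglobin had the widest difference. Hp, which binds free haemoglobin, had scaled signals of 367.9%, 127.8%, 86.1% and 20.9%. The vancomycin array was the lower of the pair at each time, and both ZT14 arrays lay below both ZT2 arrays. This was 2.88-fold lower at ZT2 (log2 -1.53) and 4.12-fold lower at ZT14 (-2.04), with a fitted difference of -1.78 ± 0.20 (moderated SE; limma, unadjusted p = 0.0038, adjusted p = 0.52). Hp was the 1 member lower by 2-fold or more at both times, which 0.848% of all genes were. Its 1 probe lies at chr8:112099045-112099104 (mm9).

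Ceruloplasmin (Cp), the copper-carrying ferroxidase of plasma, read 548.6%, 364.7%, 322.1% and 211.8%. Vancomycin was lower at both times by a like amount (-0.59 and -0.60; fitted -0.60 ± 0.14, limma, unadjusted p = 0.024, adjusted p = 0.53). A further pair of Cp probes above background on every array gave -0.63 and -0.47, and -0.52 and -0.13. Probes for 2 other Cp transcripts were not well above background on the vancomycin ZT2 array alone, with 18.8% and 5.63% in saline, so at ZT2 they were at least 8.38-fold and at least 2.51-fold lower with vancomycin. At ZT14 they gave 0.44 and -0.62; with the mean over its probes, Cp differed by -1.44 at ZT2 and -0.28 at ZT14. Transthyretin (Ttr), a carrier of thyroid hormone and of the retinol-binding protein, had 7.07%, 4.10%, 7.50% and 4.46%, so the vancomycin arrays were the lower at each time and the 2 times matched. Its differences were -0.79 and -0.75 (fitted -0.77 ± 0.14, limma, unadjusted p = 0.012, adjusted p = 0.52). With normexp, another background correction, the differences of this dim gene were -0.14 and -0.25.

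Of the other acute phase genes, Saa1 was well above background on all 4 arrays and Orm1, Hpx and Saa3 on some. Orm1, an orosomucoid of plasma, had 5.93% with saline and 3.22% with vancomycin at ZT2 (-0.88, or -0.15 with normexp), and its ZT14 arrays were both dim, that is, not well above background. Saa3, a serum amyloid A made outside the liver, had 2.40% with saline at ZT2 and was not well above background on the other 3 arrays. Its bound is 1.07-fold lower with vancomycin at ZT2 (-0.09), which is smaller than the technical error. Hemopexin (Hpx), which binds free haem, was instead the higher with vancomycin at ZT2, 3.10% against 5.07% (0.71, or 0.27 with normexp). At ZT14 it read 2.29% with saline, and was not well above background with vancomycin. Saa1 stayed between 28.4% and 30.5% on all 4 arrays. Of the 4 acute phase members measured on all arrays, 3 were lower with vancomycin at both times (27.3% of all genes were) and Saa1 was not.

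**Figure D2:**
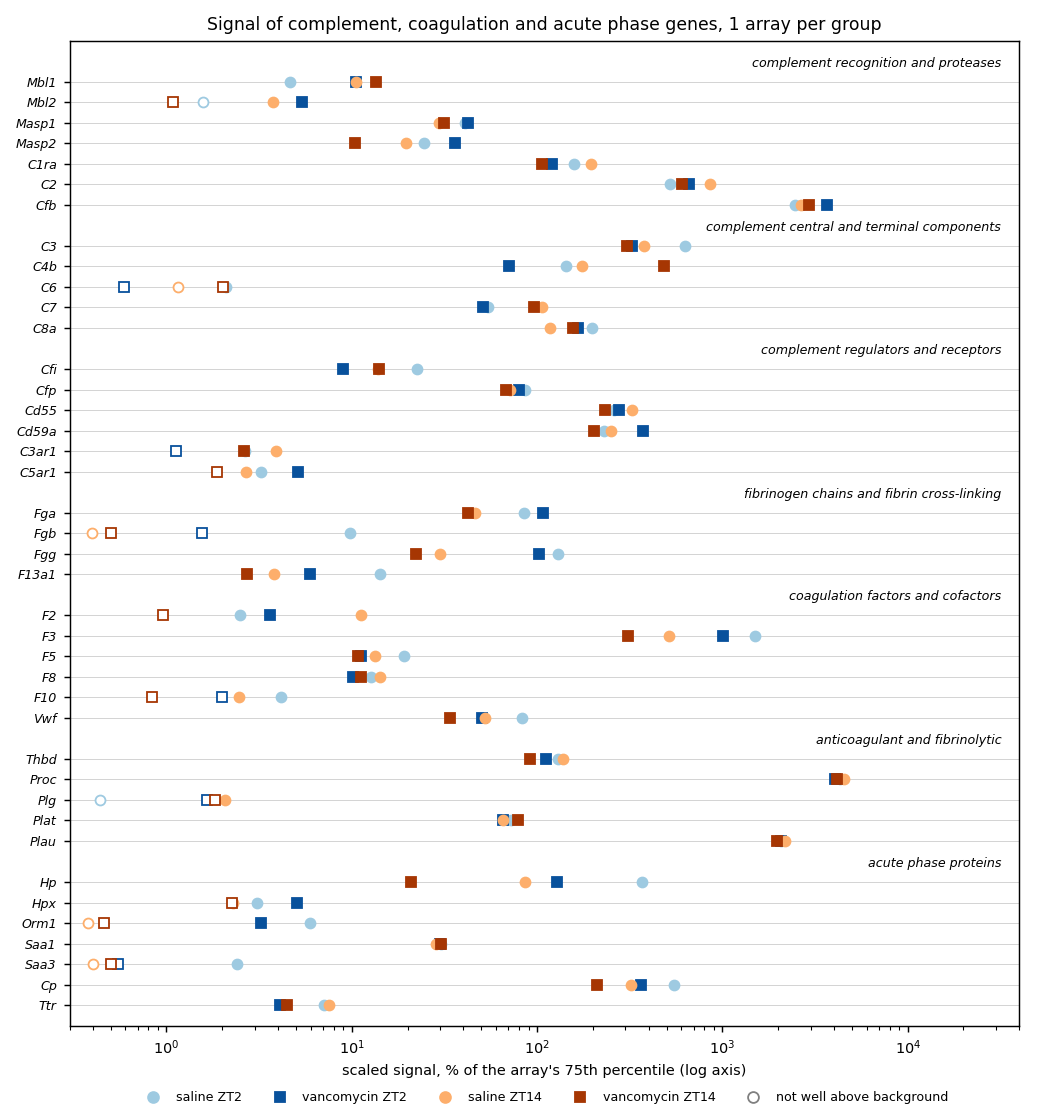
Scaled signal of the members (percent of the array's 75th percentile, log axis) on the 4 arrays, saline and vancomycin at ZT2 and ZT14, grouped by role. Each point is 1 array, and an open point is not well above background; Hp runs from 367.9% in saline ZT2 to 20.9% in vancomycin ZT14, and Saa1 stays near 30% throughout.

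In the coagulation cascade, all 4 factors measured on every array were lower with vancomycin at both times (27.3% of all genes were). Tissue factor (F3), the membrane receptor that starts clotting, read 1496.5%, 1004.1%, 512.9% and 311.4%. Both ZT14 arrays lay below both ZT2 arrays, and vancomycin was the lower at each time (-0.58 and -0.72; fitted -0.65 ± 0.14, limma, unadjusted p = 0.022, adjusted p = 0.52). Von Willebrand factor (Vwf), the endothelial and platelet protein that tethers platelets, had 83.4%, 50.2%, 52.1% and 34.1%. Vancomycin was the lower at both times (-0.73 and -0.61; fitted -0.67 ± 0.14, limma, unadjusted p = 0.019, adjusted p = 0.52). A dim second Vwf probe, above background at ZT14, gave 0.87 there, and with the mean over its probes the ZT14 difference became 0.13. Factors V and VIII (F5 and F8), cofactors of the cascade, differed by -0.77 and -0.31, and by -0.31 and -0.35.

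The factor X gene (F10), whose protease makes thrombin, was well above background in saline alone, at 4.17% at ZT2 and 2.45% at ZT14. Vancomycin was at least 1.85-fold lower at ZT2 and at least 1.18-fold lower at ZT14 (limma, unadjusted p = 0.0082, adjusted p = 0.52, on signals that include dim ones; unadjusted p = 0.33 with normexp). Prothrombin (F2) did not keep a direction. It had 2.51% with saline and 3.63% with vancomycin at ZT2 (0.54, or 0.29 with normexp), then 11.2% with saline at ZT14, where vancomycin was not well above background and at least 5.40-fold lower.

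The gamma and alpha chain transcripts of fibrinogen differed less with vancomycin than between injection times. The gamma chain gene (Fgg) had 129.0%, 102.5%, 29.8% and 22.1%, with both ZT14 arrays below both ZT2 arrays and vancomycin the lower at each time (-0.33 and -0.43). The alpha chain gene (Fga) had 84.7%, 107.3%, 46.5% and 42.2%, with a vancomycin difference of 0.34 at ZT2 and -0.14 at ZT14. The beta chain gene (Fgb) was well above background on the saline ZT2 array alone, at 9.73%, so it was at least 4.33-fold lower with vancomycin there. Factor XIII A (F13a1), the transglutaminase that cross-links fibrin and is made by macrophages and megakaryocytes, had 14.2%, 5.95%, 3.82% and 2.72%. It was 2.39-fold lower with vancomycin at ZT2 (-1.26) and 1.40-fold lower at ZT14 (-0.49; fitted -0.87 ± 0.26, limma, unadjusted p = 0.049, adjusted p = 0.58). With normexp its differences were -0.51 and -0.10.

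Among the 4 anticoagulant and fibrinolytic genes measured on all arrays, the widest difference was -0.59, for Thbd at ZT14. Thrombomodulin (Thbd), the endothelial receptor that turns thrombin to the activation of protein C, had 130.5%, 111.3%, 138.8% and 91.9% (-0.23 and -0.59). Tissue plasminogen activator (Plat) had 72.2%, 65.4%, 65.8% and 79.2%, the lower of the pair with vancomycin at ZT2 (-0.14) and the higher at ZT14 (0.27). Proc, the gene of protein C, differed by -0.08 and -0.13, and urokinase (Plau), which the tubule makes, by 0.01 and -0.15. Plasminogen (Plg) was well above background in saline ZT14 alone, at 2.06%, and no fold is given.

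The complement genes had no common direction, with a split near that of all genes. Of the 14 complement members measured on all 4 arrays, 4 were lower at both times (27.3% of all genes were). A further 3 were higher at both (29.9%) and 7 differed in sign (42.8%). Complement C4-B (C4b), cleaved to form the C3 convertase of the classical and lectin pathways, had 143.9%, 71.0%, 175.4% and 483.5%. The vancomycin array was thus the lower of the pair at ZT2, by 2.03-fold (-1.02), and the higher at ZT14, by 2.76-fold (1.46). The second C4b probe, shown earlier, had 29.8%, 12.9%, 39.3% and 84.2%, with a difference of -1.21 at ZT2 and the opposite sign at ZT14. Its copy C4a, which the probes may share, gave -0.59 and 0.99.

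C3, the central component of all complement pathways, had 625.1%, 327.1%, 377.2% and 306.1%. The saline ZT2 array stood above the other 3, which gave differences of -0.93 and -0.30. A second C3 probe gave -0.52 and -0.18. Of the terminal components, C7 had differences of -0.09 and -0.16, and C8a -0.25 and 0.42, where a second C8a probe gave -0.75 and -0.06. C6 was well above background on the saline ZT2 array alone, at 2.09%.

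Of the lectin pathway members, Mbl1, Mbl2 and Masp2 were higher with vancomycin at ZT2. Colec11, a lectin of the same pathway that is not a member, was lower at both times, as given further on. Mannose-binding lectin A (Mbl1) had 4.62%, 10.5%, 10.6% and 13.5%; the saline ZT2 array was the lowest, and vancomycin was 2.26-fold higher at ZT2 (1.18) and 1.28-fold at ZT14 (0.35); with normexp these were 0.55 and 0.22. Mannose-binding lectin C (Mbl2) was well above background on the vancomycin ZT2 array (5.38%) and the saline ZT14 array (3.78%) alone, so with vancomycin it was at least 2.81-fold higher at ZT2 and at least 1.82-fold lower at ZT14. Masp2, the lectin-bound protease that cleaves C4, had 24.6%, 36.3%, 19.6% and 10.4%, the higher with vancomycin at ZT2 (0.56) and the lower at ZT14 (-0.91, or -0.54 with normexp). A second Masp2 probe gave 0.36 and -1.29. Masp1, a further protease of the pathway, differed by 0.07 and 0.09 with its brightest probe, which had no match to a RefSeq gene symbol. A dim Masp1 probe was well above background on the vancomycin ZT2 and saline ZT14 arrays alone, with bounds of 0.94 at ZT2 and -0.30 at ZT14. Its other probes were not well above background on any array.

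Of the other proteases, C1ra, the C1r protease of the classical pathway, had 159.1%, 120.1%, 194.9% and 106.9%, with vancomycin the lower at both times (-0.41 and -0.87; fitted -0.64 ± 0.19, limma, unadjusted p = 0.049, adjusted p = 0.58). C2 differed by 0.34 and -0.49. Factor B (Cfb), the protease of the alternative pathway, had 2475.9%, 3655.7%, 2644.2% and 2944.9%, the higher with vancomycin at both times (0.56 and 0.16).

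Among regulators and receptors, complement factor I (Cfi), which cleaves C3b and C4b, had 22.4%, 8.96%, 13.8% and 14.1%. The vancomycin ZT2 array was the lowest, 2.50-fold below saline (-1.32, or -0.66 with normexp), while the ZT14 arrays differed by 0.04. Cd59a, which blocks the terminal pore, differed by 0.71 and -0.30. Cd55, which speeds the decay of convertases, differed by 0.10 and -0.48, and properdin (Cfp), which stabilises one, by -0.11 and -0.08. The C3a receptor gene (C3ar1) had 2.67% with saline at ZT2, where vancomycin was not well above background and at least 1.19-fold lower, and 3.91% and 2.62% at ZT14 (-0.58, or -0.10 with normexp). The C5a receptor gene (C5ar1) had 3.25% and 5.11% at ZT2 (0.65, or 0.26 with normexp), and at ZT14 2.70% with saline, where vancomycin was not well above background and at least 1.30-fold lower.

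**Figure D3:**
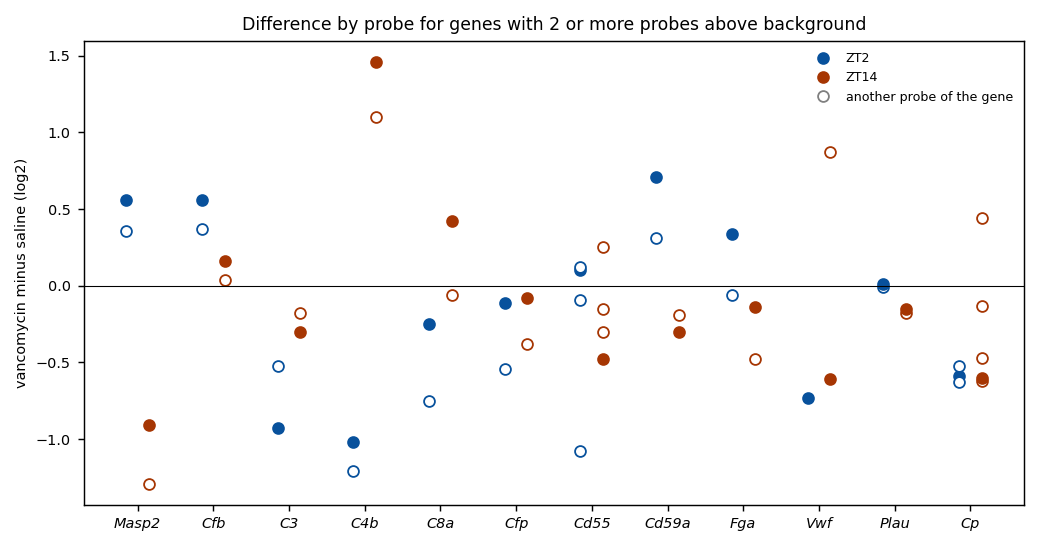
Vancomycin minus saline (vertical axis, log2) at ZT2 and ZT14 for the 12 members with 2 or more probes well above background on both arrays of a time. Filled points are the brightest probe of a gene and open points its other probes; both C4b probes are below 0 at ZT2 and above 0 at ZT14, and for Cd55 a dim probe at -1.08 stands apart from the brightest, 0.10, at ZT2.

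Between injection times, a few coagulation and acute phase genes differed by 2-fold or more in both treatments. In saline, 34 members were measured, with a median ZT14 minus ZT2 difference of -0.20 (all genes 0.02); 19 were below 0 (47.9% of all genes), 4 were lower at ZT14 by 2-fold or more (3.05% of all genes) and 2 higher (7.30%). In vancomycin, 29 were measured, with a median of -0.17 (all genes 0.03), 20 below 0 (48.1%), 6 lower by 2-fold or more (2.80%) and 1 higher (8.36%). Of the 29 members, 13 were below 0 in both treatments (35.3% of all genes) and 6 above 0 in both (39.4%). In both treatments alike, 4 of 29 were lower by 2-fold or more, namely Hp, Fgg, F3 and F13a1 (0.906% of all genes), and 0 were higher (4.83%).

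Fgg was 4.32-fold lower at ZT14 in saline and 4.64-fold lower in vancomycin (fitted -2.16 ± 0.14, limma, unadjusted p = 0.00074, adjusted p = 0.087). Hp was 4.27-fold and 6.12-fold lower (-2.09 and -2.61). F3 was 2.92-fold and 3.22-fold lower (-1.54 and -1.69). F13a1 was 3.73-fold and 2.19-fold lower (-1.90 and -1.13). Cp differed by -0.77 and -0.78, and Fga by -0.86 and -1.35, although the second Fga probe had 6.45%, 6.19%, 9.59% and 6.88% and so pointed the other way. Fgb and Orm1, not well above background at ZT14, were at least 5.86-fold and at least 3.58-fold lower in saline. In the other direction, C7, a terminal complement component, was 1.97-fold higher at ZT14 in saline and 1.87-fold higher in vancomycin. The members higher by 2-fold or more were Mbl1 and F2 in saline (1.19 and 2.16) and C4b in vancomycin (2.77). At an unadjusted p of 0.05, 7 of the 29 were lower at ZT14 (9.13% of all genes measured on all 4 arrays) and 1 higher (15.5%); 0 passed the adjusted threshold, and neither did any other gene (limma, smallest adjusted p = 0.087; 27.2% of all genes had an unadjusted p below 0.05).

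**Figure D4:**
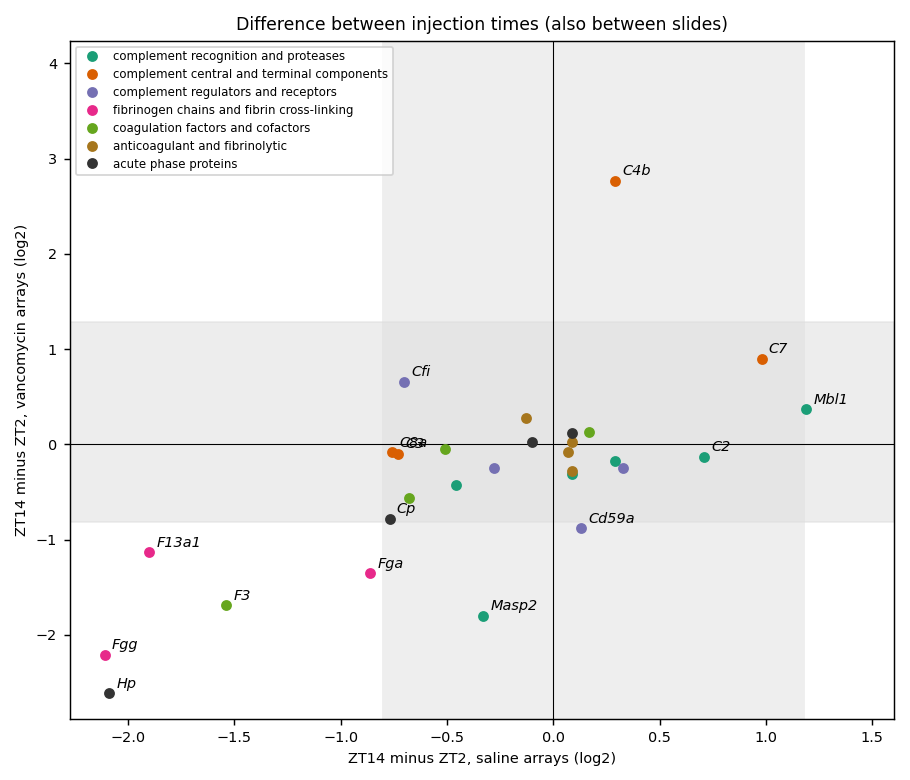
ZT14 minus ZT2 in the saline arrays (horizontal axis, log2) against the same in the vancomycin arrays (vertical axis, log2), 1 point per member measured on all 4 arrays, coloured by role. Grey bands hold the 5th to 95th percentiles of all genes (-0.80 to 1.18 in saline, -0.81 to 1.29 in vancomycin); Hp, Fgg, F3 and F13a1 lie below -1 on both axes, and each axis also compares 2 slides.

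Further genes of the same pathways were listed by function. Of 32 other complement genes 28 were above background on at least 1 array, with median differences of -0.08 at ZT2 and -0.18 at ZT14. The adjusted threshold was passed by 0. At an unadjusted p of 0.05 (limma), 7 were lower (5.35% of all genes were) and 0 higher (3.21%). By the mean size of the differences measured, the widest were Colec11, a lectin of the lectin pathway (-1.31 and -1.39), Hc, the gene of C5 (-1.27 at ZT2 and a bound of -3.11 at ZT14), and Cd59b (1.32 and -0.81). Cfd, the gene of factor D, had the lowest difference with both arrays well above background, -1.60 at ZT2, and -0.05 at ZT14. Of 29 other coagulation genes 23 were above background, with medians of -0.15 and 0.04. By the same fit and p, 1 was lower (5.35% of all genes) and 0 higher (3.21%). Plaur, the urokinase receptor, differed by -1.53 and 0.74, Tfpi, the inhibitor of tissue factor, by -1.78 and 0.23, and Serpina10 by 0.24 and -1.85.

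Of 28 other acute phase genes 23 were above background, with medians of 0.00 and -0.09. At an unadjusted p of 0.05 (limma), 7 were lower (5.35% of all genes) and 1 higher (3.21%). Rbp4, the retinol-binding protein that Ttr carries, differed by -1.79 and -0.61, A2m, a protease inhibitor, by -0.88 and -1.38, and Orm3 by 1.34 and 0.69. Of 26 regulators of the acute phase response 23 were above background (medians -0.08 and -0.11; 0 lower and 0 higher at an unadjusted p of 0.05), and Il6 was not well above background on any array. Il1b had 3.31%, 10.2%, 4.82% and 3.03% (1.62 and -0.67), Cebpd differed by -0.26 and 0.58, and Nfkbia by -0.35 and -0.47. None of the genes of these 4 lists passed the adjusted threshold.

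Markers of other cell types also differed between the arrays, in some comparisons with the members and in others not. Adipocyte markers had a median difference of -1.60 at ZT2 over 7 of 7 markers, and their summed scaled signal was 4240.1%, 1907.8%, 911.5% and 1064.2%; Adipoq had 131.0% and 42.1% at ZT2 and was not well above background at ZT14. In saline, Adipoq, Plin1, Cidec, Cfd, Fabp4 and Retn read lower at ZT14 than at ZT2 and Lep higher (28.3% and 36.9%). Of the 34 members measured in saline, 19 also read lower at ZT14 (47.9% of all genes did) and 15 read higher. At ZT14 the 4 markers measured on both arrays had a median vancomycin difference of -0.04 (Cidec -0.56, Cfd -0.05, Lep -0.03 and Fabp4 0.24), Retn had a bound of 1.53, and Hp differed by -2.04. The part of adipocyte RNA in these results was not tested.

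Macrophage markers, 12 of 12 above background, had medians of -0.54 and -0.57, and sums of 2195.5%, 2080.2%, 2370.7% and 1867.4%. Of the 10 measured on all arrays, 9 were lower at both times (27.3% of all genes were). The exception was Csf1r (0.43 and -0.20), the brightest of the list, which weighed most in these sums (971.0%, 1311.4%, 1402.0% and 1221.9%). C3ar1 and F13a1 are known macrophage transcripts. Among members also made by myeloid cells, C5ar1 differed by 0.65 at ZT2, with a bound of -0.38 at ZT14. Cfp, another of these, differed by -0.11 and -0.08. For ZT14 minus ZT2, the macrophage medians were 0.08 in saline and -0.06 in vancomycin. F13a1 differed by -1.90 and -1.13, and C3ar1 by 0.55 in saline. Platelet markers, 7 of 8 above background, had medians of -0.88 and -0.60 over the 4 measured at each time, and sums of 82.4%, 39.2%, 69.3% and 40.8%; the sums cover 5, 4, 7 and 4 genes above background. Pf4 differed by -1.20 and -1.13, Itga2b by -0.73 and 1.27, and Gp1ba was not well above background on any array. Endothelial markers were lower at both times in 10 of 10 (medians -0.35 and -0.31; sums of 3140.3%, 2488.3%, 4193.5% and 3223.4%), beside Vwf and Thbd. Fibroblast markers, 7 of 7, had medians of -1.23 and -0.41 (sums of 5067.0%, 2340.7%, 4212.1% and 2954.6%), and Pdgfra among them differed by -0.10 and -0.03. C1ra was instead the lower by more at ZT14 (-0.41 and -0.87). Adrenal cortex markers, 4 of 6 above background, were higher with vancomycin (Cyp21a1 had 6.30%, 265.1%, 13.9% and 36.4%; sums of 17.3%, 399.2%, 22.2% and 58.8%). Cyp11b1 and Cyp11a1 were not well above background in saline, and Cyp11b2 and Mc2r on no array. Erythroid markers, 4 of 5, had medians of -1.98 and 0.25 (sums of 3384.0%, 1094.7%, 3434.5% and 4251.5%). Lymphocyte markers, 6 of 7, were lower at both times in the 4 measured on all arrays (medians -0.87 and -0.84; sums of 120.5%, 71.4%, 157.2% and 116.8%), and neutrophil markers, 6 of 9, had medians of -0.61 and -0.27 (sums of 190.0%, 150.1%, 394.5% and 226.3%). The part of each of these cell types in the members' values was not tested.

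Mesothelial markers, 6 of 7 above background, had medians of -0.54 (ZT2) and 0.76 (ZT14) (sums of 986.9%, 824.8%, 556.7% and 713.7%), the sign change seen for C4b. In saline all 6 read lower at ZT14 than at ZT2 (median -0.73), and C4b read higher (0.29). This list is not specific to mesothelium, since podocytes also express Wt1, and urothelium Upk1b and Upk3b. Most of its sums came from Gpm6a (776.9%, 690.0%, 416.1% and 493.6%), which differed by -0.17 and 0.25. Hepatocyte markers were above background for 10 of 15 genes, and Ahsg, Cyp7a1, Cyp8b1, Cps1 and Uox were not well above background on any array; the list's median was 0.13 at ZT2 and -0.12 at ZT14, and its sums were 605.0%, 667.0%, 1317.0% and 870.9%. Serpina1a and Serpina1b were among them, and the kidney also expresses several of the list. The part of mesothelial cells was not tested.

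**Figure D5:**
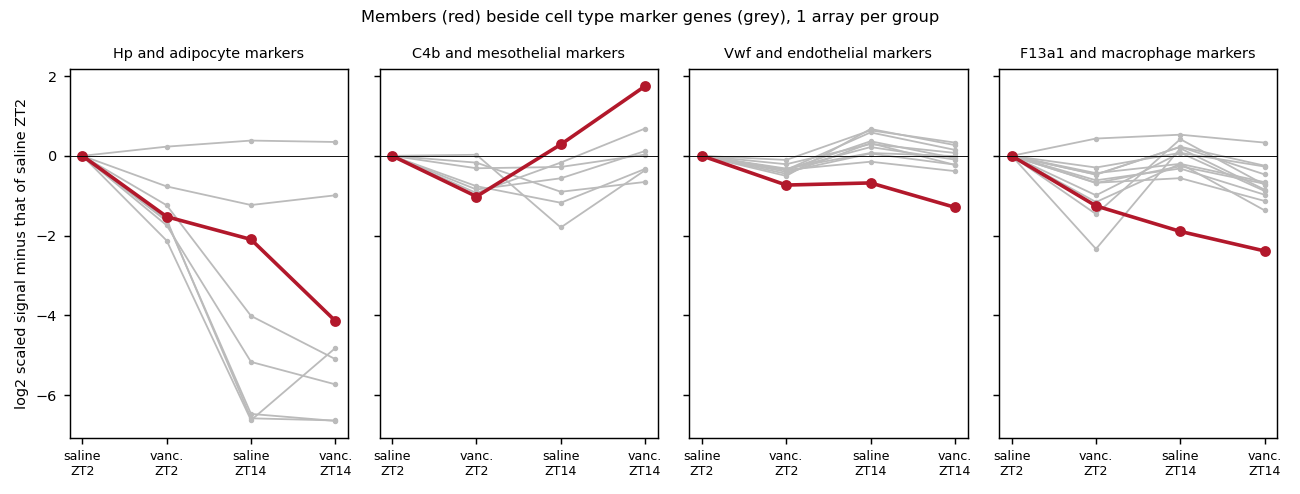
Log2 scaled signal on each array minus that of the saline ZT2 array (vertical axis) for Hp, C4b, Vwf and F13a1 (red), each beside the markers of 1 other cell type (grey lines, 1 per gene, with values not well above background included), on the 4 arrays. Hp and most adipocyte markers lie below their saline ZT2 value on the other 3 arrays. C4b is lower with vancomycin at ZT2 and higher at ZT14, as are 5 of the 6 mesothelial markers. Vwf is lower at ZT14 than at ZT2 in both treatments, where 9 of 10 endothelial markers are higher.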

How the data were processed

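Single-colour Agilent arrays of kidney RNA, 1 per group, were used. Per the file headers, the authors' deposited processed signal is a background-subtracted intensity from Feature Extraction 10.7.1.1; version 9.5.1.1 is named in the submitters' processing notes. The authors' deposited value table, an intensity on a linear scale, was set beside it as another source of values. There is no read depth, and the number of arrays and the signal over background limit the precision.

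The log2 processed signal was centred on the array's 75th percentile, without flagged spots, and replicate spots of a probe were averaged. A probe was kept where 50% or more of its spots passed the scanner's well-above-background flag on any array. Where 1 side was dim, it was raised to the lowest signal well above background on its array, and the fold is "at least". A dim signal already above that level was kept. These bounds leave out the technical error, which reached 0.35 for a difference of a member. The bounds of Saa3 and C3ar1 at ZT2, and of F10 and the dim Masp1 probe at ZT14, are smaller than that. limma 3.58.1 in R 4.3.3 fitted treatment and injection time over all 24638 genes, with Benjamini-Hochberg adjustment. The fit was run on data simulated from its own prior, with no slide effect and the same treatment difference at both times. That run therefore cannot show how the fit behaves on these 4 arrays. Probe positions are in mm9 and promoters in GRCm38.p6 (RefSeq); the probe accession matched a RefSeq gene of the same symbol for 39 of 40 members.

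The members, lists and tests were chosen with earlier results of these data known. Values on every array are given for members with a 2-fold difference, with at least 0.5 (log2) in 1 direction at both times, with an unadjusted p under 0.05, above background on 1 side alone, or among the 2 widest of their role; of the other lists, the 3 widest genes are named. A few other members are named for their role.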

Additional observations from a re-analysis of the deposited data

Results flagged for a closer look

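For C4b the vancomycin difference was -1.02 at ZT2 and 1.46 at ZT14, opposite directions that differ by 2.48 on the log2 scale. For Masp2 it was 0.56 at ZT2 and -0.91 at ZT14, a difference of -1.48. The second probe of each gene had the same pair of directions. With 1 array per group the difference between the times was not tested for either gene.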

How the results depend on the processing

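The counts past 2-fold moved with the treatment of low signals. Members lower and higher by 2-fold at ZT2 (4 and 1) became 1 and 0 with normexp background correction, 10 and 4 with no filter on dim probes, and 2 and 0 with a pseudocount of 16; with dim signals at their bound the higher count was 2. At ZT14 the lower count (1) became 5 with no filter, and 2 with the mean over probes or with dim signals at their bound. Between times in saline (4 lower, 2 higher), no filter gave 8 and 7, and the higher count was 0 with normexp, 1 with probes above background on all 4 arrays and 1 with the pseudocount. In vancomycin (6 and 1), no filter gave 13 and 3. Median differences of the members did not rise above 0 but varied. With normexp the ZT14 median went from -0.30 to -0.15. With the mean over probes, the ZT2 median went from -0.14 to -0.24. The median between times in vancomycin then went from -0.17 to -0.00, which is no difference.

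In the fit over both times, 0 genes passed the adjusted threshold under any alternative. Without the injection time term, which leaves the time differences in the residual, 1 member (Ttr) in place of 9 was lower at an unadjusted p of 0.05 (limma); the count was 7 with the authors' values, quantile normalization, median centring or the mean over probes, and 8 with normexp or no filter. Members higher at that p (0) were 1 with normexp, 1 with probes above background on all 4 arrays, 1 with the pseudocount and 2 where the prior was robust and followed intensity. Hp, F3, Vwf, Cp and C1ra stayed lower at both times under each scaling, other than Vwf at ZT14 with the mean over probes (0.13). The labels carry no replicate numbers; the fit with injection time as a term already compares the arrays within each time and slide.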
